A study of Homo sapiens with 10 samples.

Results

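The second week of cAMP treatment of human thyroid organoids was measured by RNA-seq in 4 of the 10 libraries of a time course, 2 at day 23 and 2 at day 31, all labelled c-AMP. The libraries were taken by their labels, and every gene with at least 5 counts in at least 2 of the 10 libraries was tested, 21014 of 28265 gene symbols. The organoids came from ESIBIe003-A-6, a line made from HES3 human embryonic stem cells, selected as clones, that carries green fluorescent protein (GFP) at 1 NKX2-1 allele and a lentiviral doxycycline-inducible transgene for NKX2-1 and PAX8. All libraries share culture in Matrigel drops, Activin A, a TGF-beta family ligand that induces endoderm, and a later pulse of doxycycline. NKX2-1 GFP+ live cells were sorted, so the libraries describe the cells inside this gate and not the whole organoid. Day 23 lies within a treatment with 8-br-cAMP, a cell-permeable cAMP analogue, that by the study's schedule began at day 16. By that schedule 8-br-cAMP was replaced with recombinant thyrotropin, and dexamethasone was added, shortly before day 31. The labels name c-AMP for both day 31 libraries, and the labels were followed. Day 16 libraries (before 8-br-cAMP by the schedule, labelled c-AMP), day 38 libraries (labelled TSH DEX, recombinant thyrotropin and dexamethasone) and day 45 libraries (labelled TSH SB, with the TGF-beta receptor inhibitor SB431542 and, by the study's methods, thyrotropin and dexamethasone as well) are given beside some genes. By the study's methods wells were pooled, with at least 3 wells in each replicate, and the transgene's coding reads cannot be told apart from those of endogenous NKX2-1 and PAX8.

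Thyrotropin acts on follicular cells through its receptor TSHR, which raises cAMP, activates protein kinase A and the transcription factor CREB, and drives thyroglobulin production, iodide handling and cell growth. The transcription factors NKX2-1, PAX8, FOXE1 and HHEX together define the thyroid lineage. The thyroid bud arises from anterior foregut endoderm, next to the fields of lung, stomach, liver and pancreas, and NKX2-1 also marks lung and part of the forebrain.

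The 4 libraries held 8610133 and 8318446 counts at day 23 and 9122044 and 8065086 counts at day 31, replicate 1 first, an order kept below. Values are CPM, counts scaled to a common library total with TMM factors, and changes are log2 fold changes with their standard error (SE), with n = 2 libraries a day. The share of counts taken by RN7SK, a small nuclear RNA, was 4.40 and 4.42% at day 23 and 2.92 and 3.86% at day 31. Replicates of a day differed by more than sampling noise (chi-square per degree of freedom 9.32 at day 23 and 11.3 at day 31). Calls are edgeR quasi-likelihood tests with a Benjamini-Hochberg adjusted p under 0.05, written below as edgeR adjusted p. Where a level is given as a mean, ± is the SD over the 2 libraries of a day. CPM are not divided by gene length, so the most abundant gene of a list is the one with most counts.

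Between day 23 and day 31, 8 of 13 liver and intestine markers, 7 of 19 complement and plasma protein genes, 15 of 26 glycolysis and hypoxia genes and 6 of 19 NF-kB factors and targets were called higher. The abundant genes FREM2 and PRTG fell, and no thyroid transcription factor and a single hormone synthesis gene was called. In all, 473 of 21014 genes were called (2.25%), 333 higher (1.58%) and 140 lower (0.666%) at day 31. The counts of called genes given for lists below are to be read beside these shares. The lists were chosen with earlier results of these data known. Over all lists, 87 of the 637 genes tested were called higher and 15 lower. A list share above that of all genes is therefore not independent support for a change in that list. The median change was 1.38 on the log2 scale among the genes called higher and -0.89 among those called lower, against 0.00 over all genes tested. For comparison, the week before, day 23 against day 16, had 2296 calls (10.9%), and the week after, day 38 against day 31, had 3160 (15.0%), comparisons that share the day 23 or the day 31 libraries. The CPM values of the days did not overlap for any of the 473 called genes, and did not overlap for 8258 of all genes tested (39.3%). Where days are said below not to overlap for called genes, this adds nothing to the calls. Of the genes called higher, 26 had 0 counts in both day 23 libraries, and of those called lower, 4 had 0 counts in both day 31 libraries. Leaving out a library lowered the number called, to 272 and 269 without the first and second library of day 23, and to 214 and 324 without the first and second of day 31. Of the 151 called genes named here, none changed sign in any of these fits. Below, library 1 and library 2 of a day are its replicates, and alternative fits are those with another tool, scaling, filter, replicate block or set of libraries, which do not include a threshold on fold change. In bulk RNA of sorted cells, fewer cells of a type and less RNA per cell cannot be told apart.

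**Figure D1:**
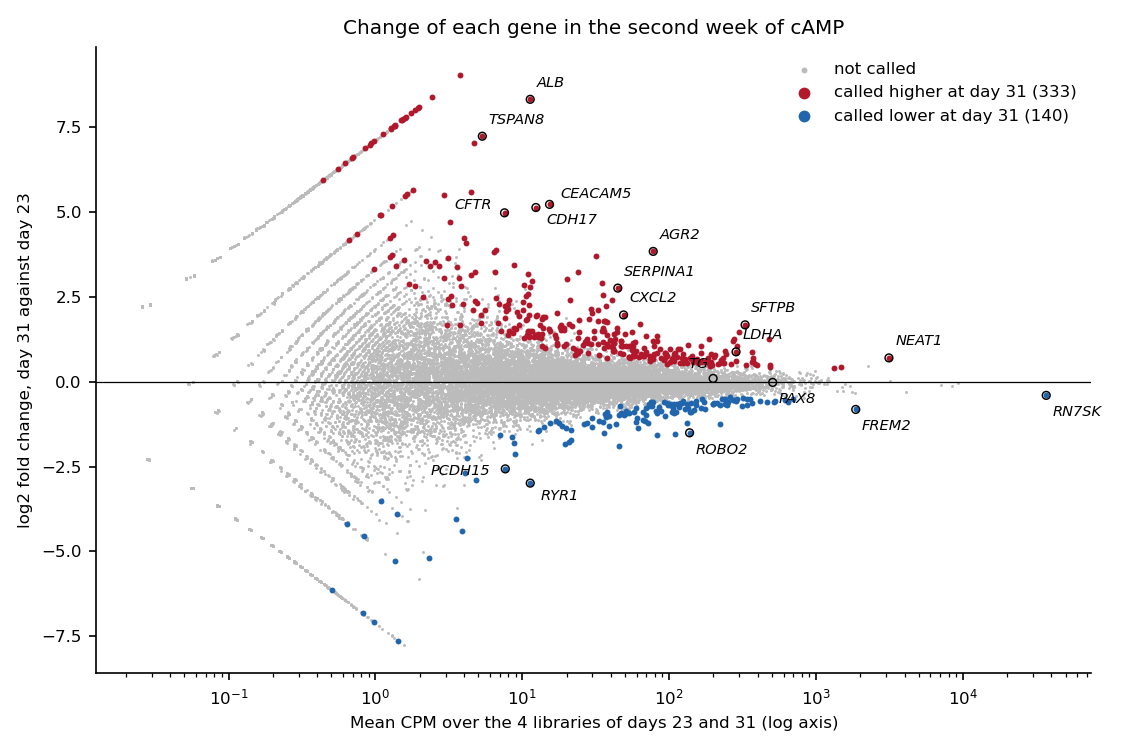
Log2 fold change of day 31 against day 23 (vertical axis) against the mean CPM of the 4 libraries (horizontal log axis), 1 point per tested gene. The 333 genes called higher are red and the 140 called lower are blue. Rises reach larger values than falls, with ALB, TSPAN8 and CEACAM5 highest and RYR1 and PCDH15 lowest among the labelled genes, while TG and PAX8 lie near 0. Lines of points at the edges are genes with 0 or few counts on a day.

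None of the 4 thyroid transcription factors was called, and their median change on the log2 scale was -0.03, or -0.04 without library 1 of day 23, -0.01 without library 2 of day 23, -0.12 without library 1 of day 31 and 0.05 without library 2 of day 31. NKX2-1, the gene used for the sort, stood at 143 and 129 CPM at day 23 and 151 and 157 CPM at day 31, and both day 31 values lay above both day 23 values (log2 fold change 0.18 ± 0.15, edgeR adjusted p = 0.698). PAX8, the paired-box factor of thyroid and kidney, stood at 502 and 518 CPM at day 23 and 529 and 477 CPM at day 31, and its days overlapped. FOXE1, the forkhead factor of thyroid migration, was at 349.6 and 324 CPM at day 23 and 273 and 303 CPM at day 31, lower in both day 31 libraries but not called (log2 fold change -0.23 ± 0.13, edgeR adjusted p = 0.547). HHEX, a homeobox factor of thyroid and liver buds, was at 362 and 365 CPM at day 23 and 379 and 333 CPM at day 31 with overlapping days. About 41% of the annotated exon length of NKX2-1 and 22% of that of PAX8 is shared with overlapping genes, so their levels are uncertain where strand was not used.

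Of the 18 hormone synthesis genes tested, none was called higher and 1 was called lower, with a median of 0.11, or 0.05 without library 2 of day 31. A fit of the libraries of days 23 and 31 alone called 1 of the 18 higher and none lower. TG, the thyroglobulin precursor of the hormones, was at 207 and 178 CPM at day 23 and 199.9 and 212 CPM at day 31, with overlapping days (log2 fold change 0.10 ± 0.10). The TG mean was 11.2 ± 0.740 CPM (SD, n = 2) at day 16, and it reached 5211 ± 475 CPM at day 38, so that days 23 and 31 lay between those levels. TSHR, the thyrotropin receptor, was at 64.9 and 78.3 CPM at day 23 and 77.7 and 77.3 CPM at day 31, and the day 31 values lay between the day 23 values. DIO2, the deiodinase that makes active hormone, was at 242 and 227 CPM at day 23 and 216 and 243 CPM at day 31 and its days overlapped.

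Of the genes of iodide use, SLC5A5, DUOX2 and IYD were not called. SLC5A5, the sodium iodide symporter, had 0 and 1 counts on day 23 against 0 and 13 on day 31, nearly all in a single library. DUOX2, an oxidase that makes hydrogen peroxide for hormone synthesis, was at 25.5 and 14.4 CPM at day 23 and 23.8 and 21.9 CPM at day 31 and its days overlapped. IYD, the iodotyrosine deiodinase that recovers iodide, was at 152 and 147 CPM at day 23 and 200.4 and 213 CPM at day 31, higher in both day 31 libraries but not called (log2 fold change 0.47 ± 0.15, edgeR adjusted p = 0.0993). KCNQ1, a potassium channel subunit, had 18 and 4 counts on day 23 against 1 and 0 on day 31, a ratio of 0.0440 with a counting interval from 0.00107 to 0.272 (edgeR adjusted p = 0.0162). SLC5A8 had 0 counts in all 4 libraries. The call of KCNQ1 did not hold without library 1 of day 23 or library 1 or 2 of day 31. KCNQ1 was not called by DESeq2 or in a fit of these 4 libraries alone.

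Among called genes with a mean of at least 5 CPM, the largest rises on the log2 scale were those of ALB, TSPAN8, CEACAM5 and CDH17. ALB, serum albumin, at chr4:73397114-73421482 of GRCh38, was at 0.111 and 0 CPM at day 23 and 23.8 and 21.3 CPM at day 31, from 1 and 0 counts to 233 and 183. The ratio of the days was 403, with a counting interval from 71.8 to 15936 (log2 fold change 8.32 ± 0.62, edgeR adjusted p = 5.4e-11), and the ALB mean went on to 38.1 ± 18.3 CPM at day 38 and 107 ± 16.4 CPM at day 45. TSPAN8, a tetraspanin of gut epithelium, was at 0 and 0.114 CPM at day 23 and 14.02 and 7.21 CPM at day 31 (ratio 193, counting interval 34.2 to 7643). CDH17, the liver-intestine cadherin, was at 1.33 and 0 CPM at day 23 and 27.4 and 20.7 CPM at day 31, with day 23 reads in the first library alone. For all of them both day 31 libraries lay above both day 23 libraries. The call of CEACAM5 did not hold without library 1 of day 31. CDH17 was not called by DESeq2.

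CFTR, the chloride channel of ducts, airway and gut, was at 0.111 and 0.800 CPM at day 23 and 14.3 and 15.01 CPM at day 31 (log2 fold change 4.98 ± 0.73, edgeR adjusted p = 3.88e-05). VSIG1, a junction protein of stomach epithelium, was at 1.66 and 0 CPM at day 23 and 14.8 and 10.01 CPM at day 31 (log2 fold change 3.87 ± 0.69). AGR2, a protein folding factor of mucus-secreting cells, was at 7.54 and 12.8 CPM at day 23 and 156 and 135 CPM at day 31, 14.3-fold higher (log2 fold change 3.84 ± 0.28, edgeR adjusted p = 3.78e-11). The AGR2 mean was 6.52 ± 2.61 CPM at day 16, 32.2 ± 7.56 CPM at day 38 and 63.5 ± 17.5 CPM at day 45, below day 31 each time. CEACAM5 and CEACAM6 are cell adhesion proteins of the carcinoembryonic antigen family, similar enough that reads may be split between them. CEACAM5 was at 0.554 and 1.03 CPM at day 23 and 51.9 and 7.80 CPM at day 31. CEACAM6 was at 2.66 and 6.29 CPM at day 23 and 74.5 and 42.7 CPM at day 31. The day 31 libraries differed widely in CEACAM5.

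TMPRSS2, a serine protease of epithelial surfaces, was at 1.55 and 0.114 CPM at day 23 and 11.2 and 12.9 CPM at day 31 (log2 fold change 3.82 ± 0.73). ROS1, a receptor tyrosine kinase, was at 2.22 and 0.686 CPM at day 23 and 14.3 and 17.8 CPM at day 31 (log2 fold change 3.45 ± 0.65). AQP3, a channel for water and glycerol, was at 1.11 and 1.37 CPM at day 23 and 15.9 and 7.80 CPM at day 31 (log2 fold change 3.24 ± 0.68). The 2 days did not overlap for any of these, as for every called gene. ALB, TSPAN8, CFTR, VSIG1, AGR2, TMPRSS2, CEACAM6 and ROS1 kept their call in every alternative fit. The call of AQP3 did not hold without library 1 of day 23 or library 1 of day 31.

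Of the 13 liver and intestine markers, 8 were called higher and none lower, against 1.58% of all genes called higher, and their median change was 2.42, or 1.78 with the gene at 0 on day 23 held at its lower bound. Their summed level was 59.1 and 54.5 CPM at day 23 and 314 and 291 CPM at day 31, about as high in both day 31 libraries, with APOB the most abundant and APOC3 at 0 in all 4 libraries. AFP, the fetal counterpart of albumin, was at 7.09 and 13.6 CPM at day 23 and 71.9 and 50.2 CPM at day 31 (log2 fold change 2.56 ± 0.30, edgeR adjusted p = 9.69e-07). APOB, the main protein of low-density lipoprotein, was at 14.5 and 11.1 CPM at day 23 and 63.2 and 73.8 CPM at day 31 (log2 fold change 2.42 ± 0.48, edgeR adjusted p = 0.00213), and APOA2, of high-density lipoprotein, rose from 2.15 ± 1.00 to 19.6 ± 3.54 CPM. TTR, a carrier of thyroid hormone made by liver and choroid plexus, was at 19.8 and 12.6 CPM at day 23 and 57.5 and 54.0 CPM at day 31 (log2 fold change 1.78 ± 0.48). FABP1, the liver fatty acid binding protein, had 0 and 3 counts on day 23 against 129 and 38 on day 31 (ratio 53.9, counting interval 18.1 to 264). The call of TTR did not hold with any of the 4 libraries left out, nor those of APOA2 and FABP1 without library 1 of day 23 or library 1 of day 31, nor that of APOB without library 2 of day 23. APOB, TTR and FABP1 were not called by DESeq2, nor TTR with the filterByExpr filter.

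VIL1, the microvillus protein villin, was at 9.20 and 8.23 CPM at day 23 and 24.1 and 31.8 CPM at day 31, and 44.2% of its annotated exon length overlaps USP37. The markers that were not called included CDX2, the intestinal homeobox factor, at 1.66 and 1.37 CPM at day 23 and 3.58 and 6.40 CPM at day 31, and APOA1, at 2.88 and 3.77 CPM at day 23 and 4.61 and 9.89 CPM at day 31. Of the 13, 4 and 5 without library 1 and 2 of day 23, and 5 and 6 without library 1 and 2 of day 31 were called. AFP and ALB kept their calls in every alternative fit. DESeq2 called 4. The part of liver or gut cells within the gate in these values was not tested. The call of VIL1 did not hold without library 1 or 2 of day 23 or library 2 of day 31.

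Several complement and plasma protein genes rose, with 7 of 19 called higher (36.8%, against 1.58% of all genes) and none lower. Their median was 1.26, or 0.72 without library 1 of day 23 and 0.45 without library 1 of day 31. Their summed level was 741 and 739 CPM at day 23 and 1177 and 1128 CPM at day 31. SERPINA1, the protease inhibitor alpha-1-antitrypsin, was at 15.1 and 7.89 CPM at day 23 and 79.6 and 76.1 CPM at day 31 (log2 fold change 2.76 ± 0.25, edgeR adjusted p = 9.39e-09), and it stood at 304 ± 44.7 CPM at day 45. FGB, a chain of fibrinogen, was at 12.1 and 14.1 CPM at day 23 and 69.2 and 52.6 CPM at day 31 (log2 fold change 2.22 ± 0.33, edgeR adjusted p = 4.04e-05). FGA, another fibrinogen chain, was at 5.10 and 0.800 CPM at day 23 and 14.6 and 15.9 CPM at day 31. FGG, the third, was at 12.1 and 12.3 CPM at day 23 and 33.1 and 32.8 CPM at day 31. Neither was called, although both day 31 libraries lay above both day 23 libraries (edgeR adjusted p = 0.0509 and 0.0684).

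C3, the central complement component, was at 27.4 and 16.7 CPM at day 23 and 55.8 and 76.4 CPM at day 31 (log2 fold change 1.58 ± 0.29, edgeR adjusted p = 0.000722). CFI, the protease that cuts C3b, rose from 27.3 ± 2.59 to 72.6 ± 14.1 CPM (log2 fold change 1.41 ± 0.31). C3 and CFI rose in the same week. Of the plasma protein list, 7 and 4 without library 1 and 2 of day 23, and 6 and 5 without library 1 and 2 of day 31 were called higher. CLU, the chaperone clusterin, was at 14.6 and 20.8 CPM at day 23 and 52.1 and 53.5 CPM at day 31 (log2 fold change 1.58 ± 0.26). CP, the copper protein ceruloplasmin, was at 4.54 and 4.001 CPM at day 23 and 10.95 and 13.03 CPM at day 31, and 20.1% of its exon length overlaps HPS3. SERPINA1, FGB and CLU kept their call in every alternative fit. C4A and C4B had 0 counts in all 4 libraries, as had TNF, PSMB8 and PSMB9 of the same MHC region, so their 0 counts are not read as absence. The calls of C3 and CP did not hold without library 2 of day 23 or library 2 of day 31, nor that of CFI without library 1 or 2 of day 23 or library 1 of day 31. C3 and CFI were not called by DESeq2, nor CP in a fit of these 4 libraries alone.

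Several transcription factors of foregut endoderm rose. Of the 21 tested, 5 were called higher and 1 lower, beside 1.58% and 0.666% of all genes. The list median was 0.45, or 0.25 without library 1 of day 23. HNF4A, the nuclear receptor of liver and gut identity, had 0 counts in both day 23 libraries and 88 and 52 counts at day 31, at least 22.3-fold higher with the floor of 3 counts per library (edgeR adjusted p = 2.66e-05). ONECUT2, a factor of liver and pancreas buds, was at 5.54 and 3.66 CPM at day 23 and 43.4 and 43.6 CPM at day 31 (log2 fold change 3.24 ± 0.49, edgeR adjusted p = 5.76e-05). FOXA2, the pioneer factor of definitive endoderm, rose from 3.15 ± 0.0901 to 18.1 ± 6.30 CPM. SOX2, a factor of the anterior foregut, rose from 2.93 ± 0.223 to 13.1 ± 3.03 CPM. The call of SOX2 did not hold with any of the 4 libraries left out, nor that of FOXA2 without library 2 of day 23 or library 1 of day 31. ONECUT2 was not called by DESeq2.

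SOX9, a factor of branching epithelial tips and ducts, was at 16.4 and 17.6 CPM at day 23 and 55.7 and 60.5 CPM at day 31 (log2 fold change 1.77 ± 0.22, edgeR adjusted p = 1.61e-06). FOXA1 was at 11.6 and 4.80 CPM at day 23 and 27.9 and 17.3 CPM at day 31 and was not called (edgeR adjusted p = 0.0744), and GATA6, the most abundant of the list, was at 76.6 and 92.8 CPM at day 23 and 93.8 and 113 CPM at day 31 (log2 fold change 0.29 ± 0.18). ISL1, a LIM homeobox factor of pharyngeal endoderm and mesoderm, fell from 158 and 167 CPM to 95.8 and 111 CPM (log2 fold change -0.66 ± 0.17, edgeR adjusted p = 0.0278). HNF4A and SOX9 kept their calls in every alternative fit, and the list had 5 and 3 without library 1 and 2 of day 23, and 3 and 4 without library 1 and 2 of day 31 called higher. SOX17 and NKX2-5 had 0 counts in all 4 libraries. The call of ISL1 did not hold with any of the 4 libraries left out.

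Some markers of secretory and lung cells rose. SFTPB, the surfactant protein B of distal lung, was at 165 and 149 CPM at day 23 and 499 and 502 CPM at day 31, 3.19-fold higher with both day 31 libraries alike (log2 fold change 1.68 ± 0.16, edgeR adjusted p = 1.24e-08). SFTPB stood at 2.51 ± 1.47 CPM at day 16, 7.602 ± 1.43 CPM at day 38 and 48.2 ± 2.88 CPM at day 45. ABCA3, a lipid transporter of surfactant bodies, was at 42.2 and 51.8 CPM at day 23 and 101 and 112 CPM at day 31 (log2 fold change 1.19 ± 0.19). Both were called, out of 9 distal lung markers tested, while SFTPC, the surfactant protein that defines alveolar type 2 cells, had 0 counts in all 4 libraries. The distal lung list summed to 234 and 225 CPM at day 23 and 644 and 652 CPM at day 31, most of it SFTPB.

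Of the 9 goblet cell markers, AGR2 and MUC2 were called higher, and the list summed to 9.53 and 16.5 CPM at day 23 and 167 and 146 CPM at day 31, most of it AGR2. MUC2, the gel-forming mucin of intestine, had 0 counts in both day 23 libraries and 36 counts in each day 31 library, at least 11.7-fold higher (edgeR adjusted p = 0.00231). TFF2 and BPIFB1 had 0 counts in all 4. Of the 10 airway basal and ciliated markers, KRT5, the basal cell keratin, was called higher, with 0 and 1 counts on day 23 against 39 and 127 on day 31 (ratio 161, counting interval 28.4 to 6382). That list summed to 95.5 and 67.5 CPM at day 23 and 102 and 111 CPM at day 31, led by TPPP3, a tubulin-binding protein, whose days overlapped. The part of lung, airway or goblet cells in these values was not tested.

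**Figure D2:**
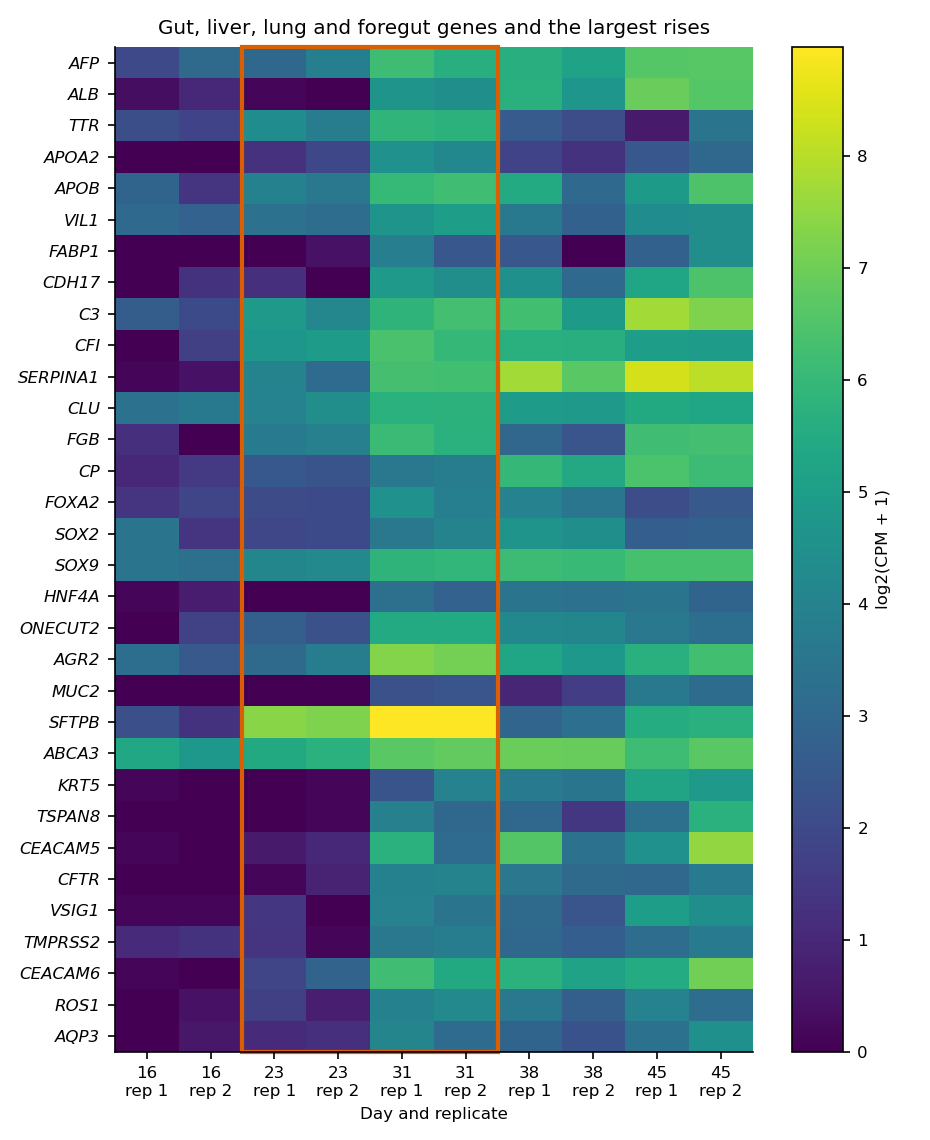
Heat map of log2(CPM + 1) in the 10 libraries for 32 genes, called higher from the liver and intestine, plasma protein, foregut, goblet, distal lung and airway lists or among the 12 largest rises of called genes with a mean of at least 5 CPM. The orange frame marks days 23 and 31. Within the frame every gene is brighter in both day 31 libraries, and AGR2, SFTPB, APOA2 and TTR dim again at day 38 while ALB, SERPINA1 and C3 are brightest at day 45.

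Many glycolysis and hypoxia genes rose together, most of them by less than 2-fold. Of 26 tested, 15 were called higher and none lower, against 1.58% of all genes, and the median change was 0.72. The summed level of the list was 2569 and 2451 CPM at day 23 and 3939.5 and 3960.2 CPM at day 31, below the 6524 and 5630.4 CPM of day 16 and the 13558 and 11969 CPM of day 38. The most abundant was GAPDH, at 455 and 369 CPM at day 23 and 566 and 557 CPM at day 31 (log2 fold change 0.45 ± 0.12). The call of GAPDH did not hold without library 2 of day 23 or library 1 or 2 of day 31.

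SLC2A1, the glucose transporter GLUT1, was at 173 and 157 CPM at day 23 and 367 and 394 CPM at day 31, 2.31-fold higher (log2 fold change 1.21 ± 0.14, edgeR adjusted p = 9.05e-07). Its day 31 level was close to that of day 16 (338 ± 105 CPM) and it reached 1684 ± 131 CPM at day 38. SLC2A3, the transporter GLUT3, rose from 318 ± 0.599 to 454 ± 40.8 CPM. HK2, the hexokinase that traps glucose, rose from 17.3 ± 4.12 to 32.3 ± 7.78 CPM. These genes serve the entry of glucose into the cell, and all of them rose. PFKP, a phosphofructokinase, rose from 41.9 ± 0.833 to 72.4 ± 5.92 CPM. PFKFB4, which makes its activator, rose from 14.8 ± 1.27 to 29.6 ± 2.33 CPM. The calls of SLC2A3 and PFKP did not hold without library 1 or 2 of day 23 or library 1 of day 31, nor that of HK2 without library 1 of day 23 or library 2 of day 31, nor that of PFKFB4 without library 2 of day 23 or library 1 of day 31. HK2 was not called in a fit of these 4 libraries alone.

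Among the later enzymes, TPI1, triose phosphate isomerase, rose from 158 ± 3.06 to 219 ± 20.2 CPM. PGK1, phosphoglycerate kinase, rose from 163 ± 5.57 to 228 ± 17.4 CPM. ENO1, enolase, rose from 260.0 ± 2.18 to 474 ± 26.0 CPM (log2 fold change 0.87 ± 0.13, edgeR adjusted p = 3.39e-05). The days did not overlap for any of these enzymes. LDHA, lactate dehydrogenase A at chr11:18394560-18408425, was at 206 and 195 CPM at day 23 and 386 and 353 CPM at day 31 (log2 fold change 0.88 ± 0.11, edgeR adjusted p = 4.14e-06). PKM, pyruvate kinase, stood at 246 and 242 CPM at day 23 and 322 and 349.6 CPM at day 31, above day 23 in both libraries but not called (edgeR adjusted p = 0.112). PDK1, a kinase of pyruvate dehydrogenase, was at 64.4 and 52.8 CPM at day 23 and 95.9 and 98.7 CPM at day 31 (log2 fold change 0.73 ± 0.14). The calls of TPI1 and PGK1 did not hold with any of the 4 libraries left out, nor that of PDK1 without library 2 of day 23. TPI1 was not called with the filterByExpr filter.

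Several hypoxia response members rose too. VEGFA, the vascular growth factor, was at 99.2 and 111 CPM at day 23 and 173 and 169 CPM at day 31 (log2 fold change 0.70 ± 0.12, edgeR adjusted p = 0.000252). BNIP3, a mitophagy receptor, was at 55.5 and 61.8 CPM at day 23 and 117 and 109.8 CPM at day 31 (log2 fold change 0.95 ± 0.14). VEGFA and BNIP3 were called with similar levels in the replicates of each day. NDRG1 rose from 42.4 ± 0.134 to 73.1 ± 15.9 CPM. ADM, the peptide adrenomedullin, rose from 3.73 ± 1.20 to 10.6 ± 2.81 CPM. CA9, a carbonic anhydrase induced by low oxygen, had 2 and 0 counts on day 23 against 26 and 7 on day 31 and was not called. ANKRD37 had the lowest change of the list and was not called (log2 fold change -0.29, edgeR adjusted p = 0.938). Of the whole list, 24 changes lay above 0 and 2 below, and 11 genes were not called. The list had 8 and 6 without library 1 and 2 of day 23, and 8 and 11 without library 1 and 2 of day 31 called higher. SLC2A1, ENO1, LDHA, BNIP3 and VEGFA kept their calls in every alternative fit. None was called lower in any alternative. The calls of NDRG1 and ADM did not hold without library 1 or 2 of day 23 or library 1 of day 31. ADM was not called in a fit of these 4 libraries alone.

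The promoters of LDHA and PGK1 are shown because both carry the letters ACGTG, a form of the core that hypoxia-inducible factors bind, within the 250 bases before the RefSeq start (GRCh38.p14), 5′ to 3′ on the gene's strand, with the matches on either strand in capitals. A stretch CACGTG, which is also an E-box, counts on both strands.
LDHA (chr11:18394313-18394562, plus strand): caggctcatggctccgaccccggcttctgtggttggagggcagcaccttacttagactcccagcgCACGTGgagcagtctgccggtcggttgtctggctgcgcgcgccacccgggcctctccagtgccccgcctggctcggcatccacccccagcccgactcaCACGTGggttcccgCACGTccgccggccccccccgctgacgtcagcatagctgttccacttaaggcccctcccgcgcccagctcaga
PGK1 (chrX:78103998-78104247, plus strand): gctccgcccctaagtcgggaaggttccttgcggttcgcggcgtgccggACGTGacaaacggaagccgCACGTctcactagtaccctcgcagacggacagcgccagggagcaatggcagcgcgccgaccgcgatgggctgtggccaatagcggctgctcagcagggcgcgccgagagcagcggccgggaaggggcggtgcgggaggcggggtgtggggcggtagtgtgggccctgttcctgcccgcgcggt
LDHA held 5 matches and PGK1 held 2. The LDHA stretch also holds the full cAMP response element TGACGTCA, left in lower case here. That element was found in 2.7% of the promoters of all tested genes. In windows that also reach 50 bases past the start, ACGTG was found in 24.3% of the 14838 tested genes with a promoter sequence, in 10 of the 23 list genes with one (43.5%) and in 5 of the 12 that were called (41.7%). With the other form, GCGTG, also counted, 57.6% of all promoters, 17 of the 23 (73.9%) and 9 of the 12 (75.0%) held a match. These matches describe letters and do not show binding.

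Further genes known to respond to low oxygen were chosen after their values were seen. BHLHE40, a clock and hypoxia repressor, was at 31.6 and 27.8 CPM at day 23 and 98.9 and 93.9 CPM at day 31 (log2 fold change 1.70 ± 0.16, edgeR adjusted p = 1.24e-08). AK4, a mitochondrial adenylate kinase, rose from 18.3 ± 2.54 to 51.0 ± 4.39 CPM. AK4 rose by more than 2-fold. P4HA1, a collagen prolyl hydroxylase subunit, rose from 67.3 ± 7.84 to 121 ± 7.40 CPM. NDUFA4L2, a mitochondrial protein, rose from 0.390 ± 0.389 to 4.70 ± 1.58 CPM. ERO1A, an oxidase for disulfide bonds, rose from 79.5 ± 17.7 to 115 ± 11.6 CPM. The days did not overlap for any of these genes. The call of ERO1A did not hold without library 1 of day 23 or library 1 or 2 of day 31. ERO1A was not called with the filterByExpr filter, nor NDUFA4L2 in a fit of these 4 libraries alone.

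Several NF-kB target genes and chemokines rose. Of 19 NF-kB factors and targets, 6 were called higher (31.6%, against 1.58% of all genes) and none lower (median 0.65, or 1.00 without library 2 of day 23). The list summed to 457 and 475 CPM at day 23 and 769.8 and 790.1 CPM at day 31. NFKBIZ, a nuclear regulator that NF-kB induces, was at 121 and 99.1 CPM at day 23 and 249.5 and 281 CPM at day 31 (log2 fold change 1.27 ± 0.14, edgeR adjusted p = 1.38e-07). NFKBIA, the inhibitor IkB-alpha at chr14:35401079-35404749, was at 44.7 and 53.3 CPM at day 23 and 94.3 and 84.1 CPM at day 31 (log2 fold change 0.87 ± 0.15, edgeR adjusted p = 0.000308). NFKBIA is a target of NF-kB and holds it in the cytoplasm. TNFAIP3, the feedback protein A20, rose from 7.33 ± 1.12 to 18.2 ± 5.88 CPM. BCL3, an atypical IkB, rose from 5.12 ± 0.0327 to 19.7 ± 4.71 CPM. The call of TNFAIP3 did not hold without library 2 of day 31.

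ICAM1, the leukocyte adhesion molecule, rose from 3.15 ± 0.228 to 10.5 ± 4.26 CPM. SOD2, mitochondrial superoxide dismutase, rose from 58.9 ± 7.30 to 90.2 ± 3.93 CPM. The subunit gene NFKB1 stood at 33.7 and 42.3 CPM at day 23 and 38.6 and 43.3 CPM at day 31 with overlapping days (log2 fold change 0.11 ± 0.19). With the second library of day 31 left out, 3 of the 19 were called, and with any other library left out 5 to 7 were. NFKBIA, NFKBIZ and BCL3 kept their calls in every alternative fit. The call of SOD2 did not hold without library 2 of day 23 or library 1 or 2 of day 31, nor that of ICAM1 without library 2 of day 31. ICAM1 was not called in a fit of these 4 libraries alone.

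Of 23 chemokines and cytokines, 4 were called higher, all of them chemokines, and none lower (median 0.57, or 0.92 without library 1 of day 23). CXCL2, which draws in neutrophils, at chr4:74097040-74099196, was at 24.9 and 14.9 CPM at day 23 and 91.2 and 64.6 CPM at day 31, 3.91-fold higher (log2 fold change 1.97 ± 0.18, edgeR adjusted p = 9.39e-09). CXCL8, interleukin 8, was at 0.222 and 0.686 CPM at day 23 and 6.24 and 5.24 CPM at day 31 (log2 fold change 3.63 ± 0.43), and CXCL5 rose from 0.457 ± 0.647 to 4.96 ± 1.37 CPM. CCL20, which draws in lymphocytes and dendritic cells, had 0 counts in both day 23 libraries and 9 and 16 at day 31, at least 4.12-fold higher (edgeR adjusted p = 0.00078). At day 45 CXCL2 stood at 826 ± 12.2 CPM and CXCL8 at 590.5 ± 66.9 CPM. The list is led in level by CXCL12, and CXCL10 and TNF had 0 counts in all 4 libraries. The call of CXCL5 did not hold without library 1 of day 23 or library 2 of day 31. CXCL5 and CCL20 were not called in a fit of these 4 libraries alone.

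The promoters of CXCL2 and NFKBIA are shown because each holds the NF-kB letters GGG, any 2 bases and then TTTCC, searched on both strands, in the 250 bases before the RefSeq start (GRCh38.p14), 5′ to 3′ on the gene's strand, with the match in capitals.
CXCL2 (chr4:74099196-74099445, minus strand): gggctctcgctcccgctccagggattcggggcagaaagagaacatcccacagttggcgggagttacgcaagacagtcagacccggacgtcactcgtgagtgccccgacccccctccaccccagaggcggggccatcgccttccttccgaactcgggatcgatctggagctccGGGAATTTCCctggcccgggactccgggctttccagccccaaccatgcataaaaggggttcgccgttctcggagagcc
NFKBIA (chr14:35404750-35404999, minus strand): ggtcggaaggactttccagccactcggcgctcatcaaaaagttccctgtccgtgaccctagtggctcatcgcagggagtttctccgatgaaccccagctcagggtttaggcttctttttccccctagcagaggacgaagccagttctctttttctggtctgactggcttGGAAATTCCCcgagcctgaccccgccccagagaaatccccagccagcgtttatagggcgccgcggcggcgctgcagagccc
In NFKBIA the letters lie on the opposite strand. Over windows that reach 50 bases past the start, the motif was found in 2.1% of the 14838 promoters of tested genes, in 6 of the 16 NF-kB list promoters and 8 of the 16 of the chemokine and cytokine list, called or not. Of the called genes alone, 3 of 6 and 3 of 4 held it, and a match describes letters alone. Among all 246 genes called higher with a promoter sequence, 4.5% held it.

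SOCS3, CEBPD, IL1R1 and OSMR, chosen after their values were seen, were called higher. SOCS3, a brake on cytokine signalling, rose from 78.4 ± 24.2 to 140.4 ± 10.00 CPM. CEBPD, an acute phase transcription factor, rose from 29.9 ± 5.15 to 82.0 ± 0.653 CPM. IL1R1, the interleukin 1 receptor, rose from 7.40 ± 2.31 to 19.8 ± 5.19 CPM. OSMR, the oncostatin M receptor, rose from 6.39 ± 2.77 to 15.8 ± 4.35 CPM. CEBPD kept its call in every alternative fit. Of 23 interferon-stimulated genes only OAS3, a sensor of double-stranded RNA, was called, at 0.998 and 0.800 CPM at day 23 and 10.7 and 5.47 CPM at day 31. The call of OAS3 did not hold without library 1 or 2 of day 23 or library 1 of day 31, nor that of OSMR without library 1 of day 23 or library 1 of day 31, nor that of SOCS3 without library 1 of day 23 or library 1 or 2 of day 31, nor that of IL1R1 without library 1 of day 23 or library 2 of day 31. IL1R1 was not called by DESeq2, nor OSMR with the filterByExpr filter or in a fit of these 4 libraries alone.

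Of 23 cAMP and CREB target genes, 2 were called higher (8.70%, against 1.58% of all genes) and none lower (median 0.29). Over the genes of all lists, 87 of 637 were called higher. The cAMP list summed to 6660.1 and 6224 CPM at day 23 and 7175 and 7122 CPM at day 31. NR4A1, an immediate early nuclear receptor, was at 194 and 159 CPM at day 23 and 276 and 271 CPM at day 31 (log2 fold change 0.64 ± 0.16, edgeR adjusted p = 0.0254). JUNB, an AP-1 subunit, rose from 176 ± 10.2 to 251 ± 16.9 CPM (log2 fold change 0.51 ± 0.14, edgeR adjusted p = 0.0452). EGR1, the most abundant of the list, was at 1981 and 1774 CPM at day 23 and 2721 and 2499 CPM at day 31, above day 23 in both libraries (edgeR adjusted p = 0.0574), while FOS was at 1581 and 1452 CPM at day 23 and 1231 and 1262 CPM at day 31, below it in both, and neither was called. The call of JUNB did not hold with any of the 4 libraries left out, nor that of NR4A1 without library 2 of day 23 or library 1 or 2 of day 31. JUNB was not called with the filterByExpr filter.

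CREM, a repressor that CREB induces, was at 31.1 and 33.4 CPM at day 23 and 32.3 and 33.3 CPM at day 31, and its days overlapped. SST, somatostatin, a classic gene with a cAMP response element, was at 1019.7 and 910.2 CPM at day 23 and 984 and 1124 CPM at day 31, after 137 ± 23.6 CPM at day 16. PDE4D, a phosphodiesterase that cAMP induces, was at 312 and 288 CPM at day 23 and 291 and 261 CPM at day 31 (log2 fold change -0.12 ± 0.13). Without a day 31 library neither NR4A1 nor JUNB was called in this list, and SIK1 had 0 counts in all 4 libraries. The full cAMP response element TGACGTCA was found in the promoters of 5 of the 21 list genes with a sequence (23.8%). This was against 2.7% of all tested genes and 1.6% of the 246 called higher. Neither of the 2 called genes of this list held it.

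Of 17 FGF and ERK feedback genes, 3 were called higher and none lower (median 0.50). ETV5, an ETS factor downstream of FGF receptors, was at 40.9 and 37.7 CPM at day 23 and 95.4 and 106 CPM at day 31 (log2 fold change 1.35 ± 0.24, edgeR adjusted p = 0.000567), and its mean was 14.8 ± 1.66 CPM at day 38. PHLDA1 rose from 81.1 ± 13.7 to 157 ± 7.69 CPM. DUSP4, a phosphatase that switches ERK off, rose from 49.9 ± 10.4 to 85.0 ± 11.6 CPM. EGFR, SHH and MYC, chosen after their values were seen, were called higher. EGFR, the epidermal growth factor receptor, rose from 93.6 ± 6.99 to 152 ± 11.4 CPM. SHH, the ligand sonic hedgehog, rose from 26.1 ± 2.93 to 58.0 ± 7.68 CPM. MYC rose from 9.32 ± 1.55 to 24.1 ± 3.36 CPM. The call of SHH did not hold with any of the 4 libraries left out, nor that of MYC without library 1 or 2 of day 23 or library 1 of day 31, nor that of DUSP4 without library 1 of day 23 or library 1 or 2 of day 31, nor that of EGFR without library 1 of day 23 or library 2 of day 31.

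Other regulators of epithelia, chosen after their values were seen, were KLF5, RUNX1, THBS1 and ANXA1. KLF5, a factor of gut and lung epithelium, was at 163 and 172 CPM at day 23 and 319 and 305 CPM at day 31 (log2 fold change 0.89 ± 0.13, edgeR adjusted p = 3.01e-05). RUNX1, a runt factor, rose from 8.12 ± 1.29 to 22.7 ± 2.60 CPM. THBS1, the matrix protein thrombospondin 1, was at 259 and 301 CPM at day 23 and 682 and 665 CPM at day 31 (log2 fold change 1.27 ± 0.12, edgeR adjusted p = 1.24e-08). ANXA1, an anti-inflammatory annexin, rose from 188 ± 12.6 to 391 ± 13.1 CPM. The days did not overlap for any of these genes. The call of RUNX1 did not hold without library 1 of day 23.

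Of 25 DNA replication and G1/S genes, CCND1 and RRM2 were called higher (median 0.15, or 0.03 without library 2 of day 23 and 0.09 without library 2 of day 31), and of 25 G2 and mitosis genes, CENPE was (median 0.07, or 0.12 without library 2 of day 23, 0.02 without library 1 of day 31 and 0.04 without library 2 of day 31), beside 1.58% of all genes. CCND1, cyclin D1, was at 71.8 and 71.7 CPM at day 23 and 123 and 120.2 CPM at day 31 (log2 fold change 0.76 ± 0.15, edgeR adjusted p = 0.00186), a call kept in every alternative fit. RRM2, a subunit of ribonucleotide reductase, rose from 7.07 ± 2.23 to 18.6 ± 0.302 CPM. CENPE, a kinetochore motor, rose from 44.9 ± 2.91 to 90.0 ± 13.3 CPM. MKI67, the proliferation antigen Ki-67, was at 136 and 151 CPM at day 23 and 212 and 182 CPM at day 31. TOP2A, topoisomerase II, was at 124 and 100.3 CPM at day 23 and 153 and 140.0 CPM at day 31. Both lay above day 23 in both libraries without a call (edgeR adjusted p = 0.158 and 0.324). The call of RRM2 did not hold with any of the 4 libraries left out, nor that of CENPE without library 1 of day 31. RRM2 was not called with the filterByExpr filter.

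The mitosis list summed to 925 and 949 CPM at day 23 and 1168 and 1017 CPM at day 31. Among 15 cell cycle inhibitors and growth arrest genes, BTG2, an antiproliferative factor, was called higher, at 289 and 268 CPM at day 23 and 379 and 402 CPM at day 31. GADD45B rose from 11.01 ± 1.99 to 23.5 ± 4.49 CPM. GADD45A, of the same family as GADD45B, was called lower, at 47.8 and 48.5 CPM at day 23 and 21.4 and 28.0 CPM at day 31. CDKN2A had 0 counts in all 4 libraries. The call of BTG2 did not hold with any of the 4 libraries left out, nor those of GADD45B and GADD45A without library 1 or 2 of day 23 or library 1 of day 31.

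Among called genes with a mean of at least 5 CPM, the largest fall on the log2 scale was that of RYR1. RYR1, a calcium release channel best known from skeletal muscle, was at 19.5 and 20.7 CPM at day 23 and 2.05 and 3.03 CPM at day 31, with both day 31 values far below (log2 fold change -2.99 ± 0.39, edgeR adjusted p = 5.45e-06). PCYT1B, an enzyme of phosphatidylcholine synthesis, was at 66.9 and 76.9 CPM at day 23 and 19.3 CPM in both libraries at day 31 (log2 fold change -1.90 ± 0.25, edgeR adjusted p = 6.51e-06). RASL11B, a small GTPase, was at 30.6 and 34.0 CPM at day 23 and 7.57 and 11.4 CPM at day 31, and 66.3% of its exon length overlaps LINC01618. These falls were larger than the spread within either day. RCAN2, a regulator of calcineurin, fell from 32.7 ± 8.60 to 10.02 ± 1.14 CPM. LIX1 fell from 30.3 ± 4.43 to 8.54 ± 2.69 CPM. The days did not overlap for any of them. The call of RCAN2 did not hold without library 2 of day 23 or library 1 of day 31, nor that of LIX1 without library 2 of day 31.

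Adhesion and sorting proteins were among them. SORCS1, a neuronal sorting receptor, was at 147 and 176 CPM at day 23 and 53.9 and 57.4 CPM at day 31 (log2 fold change -1.54 ± 0.17, edgeR adjusted p = 3.35e-07). COL22A1, a collagen of tissue junctions, fell from 124 ± 6.86 to 42.1 ± 0.425 CPM (log2 fold change -1.56 ± 0.19, edgeR adjusted p = 1.83e-06). PCDH15, a protocadherin of hair cells, fell from 13.1 ± 3.21 to 2.18 ± 2.42 CPM. In SORCS1 and COL22A1, replicates of a day lay closer together than the days, while for PCDH15 the SD at day 31 was larger than the mean. PCDHB18P, a pseudogene of the protocadherin beta cluster that may share reads with its relatives, fell from 14.4 ± 2.79 to 3.30 ± 1.92 CPM. TSTD1, a sulfurtransferase, fell from 13.6 ± 1.65 to 3.93 ± 2.67 CPM. PAX7, a paired-box factor of neural crest and muscle precursors, was at 9.53 and 11.5 CPM at day 23 and 4.61 and 2.33 CPM at day 31, and it stood at 34.0 ± 14.3 CPM at day 16 and 97.2 ± 12.4 CPM at day 38. HEY2, a Notch effector, was at 15.8 and 9.83 CPM at day 23 and 4.09 and 4.19 CPM at day 31 and was the single gene called among 15 Notch genes. The calls of PCDHB18P and TSTD1 did not hold without library 1 or 2 of day 23 or library 1 of day 31, nor that of PCDH15 without library 1 or 2 of day 23 or library 2 of day 31, nor that of HEY2 without library 1 of day 23 or library 1 or 2 of day 31, nor that of PAX7 without library 2 of day 31. PCDH15 and TSTD1 were not called with the filterByExpr filter, nor PAX7 in a fit of these 4 libraries alone.

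The most abundant genes called lower were RN7SK, FREM2, ALCAM, PRTG and KIAA1217. FREM2, an extracellular matrix protein of embryonic epithelia, was at 2412 and 2337 CPM at day 23 and 1364 and 1333 CPM at day 31 (log2 fold change -0.82 ± 0.10, edgeR adjusted p = 1.83e-06). PRTG, protogenin, an adhesion receptor of the early embryo, was at 757 and 782 CPM at day 23 and 523 and 499.8 CPM at day 31 (log2 fold change -0.59 ± 0.11, edgeR adjusted p = 0.00109). Replicates of these abundant genes were close. ALCAM, a cell adhesion molecule, fell from 823 ± 46.7 to 578 ± 28.4 CPM. KIAA1217 fell from 723 ± 14.5 to 497 ± 30.3 CPM. PRTG and FREM2 stood at 1904 ± 24.8 and 3082 ± 43.5 CPM at day 16 and at 113 ± 2.87 and 550.2 ± 6.86 CPM at day 45. RN7SK, with 41974 and 41996 CPM at day 23, had 27279 and 36264 CPM at day 31 (edgeR adjusted p = 0.0478). The calls of RN7SK and KIAA1217 did not hold without library 1 or 2 of day 23 or library 1 of day 31, nor that of ALCAM without library 1 of day 23 or library 1 or 2 of day 31. RN7SK was not called by DESeq2 or without TMM factors or with the filterByExpr filter.

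The most abundant genes called higher were NEAT1, TTN, ZFP36L1, MCL1 and GAPDH. NEAT1, the long RNA of paraspeckles, was at 2521 and 2251 CPM at day 23 and 4126 and 3634 CPM at day 31 (log2 fold change 0.70 ± 0.11, edgeR adjusted p = 6.68e-05), and its call held in every alternative fit. ZFP36L1, which targets messenger RNAs for decay, rose from 1135 ± 20.4 to 1514 ± 166 CPM. MCL1, a survival protein, rose from 405 ± 23.4 to 573 ± 18.9 CPM. The calls of TTN, ZFP36L1 and MCL1 did not hold with any of the 4 libraries left out. TTN and ZFP36L1 were not called with the filterByExpr filter.

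ROBO2, SEMA3C, CDH6, ERBB4, MSX2, MSX1, GLI3, SOX4 and FOXP2, chosen after their values were seen, were called lower. ROBO2, a receptor for Slit at chr3:75906695-77649964, was at 221 and 186 CPM at day 23 and 61.9 and 81.6 CPM at day 31 (log2 fold change -1.50 ± 0.15, edgeR adjusted p = 5.58e-08). SEMA3C, a secreted semaphorin, fell from 184 ± 8.22 to 78.9 ± 1.33 CPM (log2 fold change -1.22 ± 0.17, edgeR adjusted p = 1.35e-05). CDH6, a cadherin of kidney and neural crest, fell from 101 ± 20.6 to 43.2 ± 5.07 CPM. ERBB4, a neuregulin receptor, fell from 60.9 ± 1.85 to 25.6 ± 2.01 CPM. The days did not overlap for either. MSX2, a homeobox target of BMP, was at 148 and 141 CPM at day 23 and 79.5 and 76.4 CPM at day 31. MSX1, its relative, fell from 8.49 ± 5.70 to 1.12 ± 0.437 CPM. Both MSX genes fell. GLI3, a transcription factor of hedgehog signalling, fell from 65.1 ± 5.80 to 32.9 ± 7.67 CPM. SOX4, a SRY-box factor, fell from 622 ± 4.42 to 415 ± 50.7 CPM. FOXP2, a forkhead factor, fell from 134 ± 6.92 to 78.6 ± 3.27 CPM. ROBO2, SEMA3C, CDH6, ERBB4 and MSX2 kept their calls in every alternative fit. The call of FOXP2 did not hold with any of the 4 libraries left out, nor that of MSX1 without library 1 of day 23 or library 1 or 2 of day 31, nor that of SOX4 without library 1 of day 23 or library 2 of day 31, nor that of GLI3 without library 2 of day 23 or library 1 of day 31.

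Targets of TGF-beta and BMP split. Of 18 tested, 2 were called higher and 3 lower, beside 1.58% and 0.666% of all genes. The list median was -0.11, or -0.17 without library 1 of day 23 and -0.20 without library 2 of day 31. BAMBI, a decoy receptor that BMP induces, was at 185 and 184 CPM at day 23 and 105 and 92.7 CPM at day 31 (log2 fold change -0.90 ± 0.17, edgeR adjusted p = 0.000974). ID3, a direct BMP target, fell from 303 ± 0.589 to 203 ± 22.1 CPM. Both lie downstream of BMP. The ligand gene BMP4, chosen after its value was seen and left out of the counts of named genes, was called higher (log2 fold change 0.74, edgeR adjusted p = 0.0139). BMP2, another ligand gene, was not called (log2 fold change 0.36, edgeR adjusted p = 0.390). A change in BMP signalling was not tested. CCN1, a matricellular protein, fell from 299.6 ± 6.48 to 219 ± 21.8 CPM. INHBA, the activin A subunit, was among the 2 called higher, at 4.32 and 4.46 CPM at day 23 and 9.72 and 13.3 CPM at day 31. TGFBI, a matrix protein, rose from 10.8 ± 3.42 to 23.6 ± 3.52 CPM. FN1, fibronectin, the most abundant of the list, was at 7387 and 7221 CPM at day 23 and 6534 and 7059 CPM at day 31 (log2 fold change -0.10 ± 0.09). The number called lower was 1 and 1 without library 1 and 2 of day 23, and 2 and 2 without library 1 and 2 of day 31, and the number called higher 1 and 1 without library 1 and 2 of day 23, and 0 and 0 without library 1 and 2 of day 31. A fit of the 4 libraries alone called 1 of the list higher and 7 lower. DESeq2, no filter and a replicate block each called 2 higher and 5 lower. The fit without TMM factors called 2 and 2, and filterByExpr 0 and 3. The BAMBI call held in every alternative fit. The calls of CCN1 and INHBA did not hold with any of the 4 libraries left out, nor that of ID3 without library 1 or 2 of day 23 or library 2 of day 31, nor that of TGFBI without library 2 of day 23 or library 1 or 2 of day 31. CCN1 was not called without TMM factors, nor INHBA and TGFBI with the filterByExpr filter, nor INHBA in a fit of these 4 libraries alone.

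Of 19 WNT targets and regulators, none was called higher and 3 were called lower (15.8%, against 0.666% of all genes). In the list, 8 changes lay above 0 and 11 below. AXIN2 (log2 fold change -0.11, edgeR adjusted p = 0.929) and APCDD1 (0.78, edgeR adjusted p = 0.198) were not called. A change in WNT signalling was not tested. The list median was -0.21, or -0.10 without library 1 of day 23, -0.35 without library 2 of day 23 and -0.11 without library 1 of day 31. LEF1, the nuclear partner of beta-catenin, was at 139.5 and 132 CPM at day 23 and 64.4 and 81.6 CPM at day 31 (log2 fold change -0.90 ± 0.17, edgeR adjusted p = 0.00109). ZNRF3, a ligase that removes WNT receptors, fell from 269 ± 8.02 to 190.2 ± 4.98 CPM. SFRP1, a secreted WNT antagonist, was at 54.1 and 57.2 CPM at day 23 and 22.8 and 22.0 CPM at day 31 (log2 fold change -1.31 ± 0.20, edgeR adjusted p = 7.75e-05), the steepest fall of the list and the call that held in every alternative fit. The number called lower was 2 and 2 without library 1 and 2 of day 23, and 1 and 2 without library 1 and 2 of day 31. The list summed to 1059 and 1039 CPM at day 23 and 814 and 866 CPM at day 31. The call of ZNRF3 did not hold with any of the 4 libraries left out, nor that of LEF1 without library 1 of day 31. ZNRF3 was not called without TMM factors.

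A few epithelial junction genes were called, in both directions. Of 23 tested, 3 were called higher and 1 lower, and the list summed to 2723 and 2665 CPM at day 23 and 2766 and 2756 CPM at day 31. CLDN1, a tight junction claudin, was at 0.111 and 0.800 CPM at day 23 and 11.1 and 4.54 CPM at day 31 (log2 fold change 4.07 ± 0.63, edgeR adjusted p = 6.84e-05). CLDN4 rose from 214 ± 6.77 to 309 ± 11.5 CPM. CLDN6, an embryonic claudin, fell, at 110.4 and 116 CPM at day 23 and 59.8 and 64.7 CPM at day 31. The claudins moved in both directions. ELF3, an ETS factor of epithelia, rose from 28.5 ± 6.197 to 65.2 ± 0.409 CPM. Of 12 keratins, KRT17 was called higher, at 6.54 and 2.74 CPM at day 23 and 13.3 and 19.7 CPM at day 31. KRT8, the most abundant, was at 697 and 632 CPM at day 23 and 475 and 529 CPM at day 31, lower in both day 31 libraries without a call (edgeR adjusted p = 0.0566). The keratin median of 1.60 (1.37 with genes at 0 on day 23 held at their bounds) was 0.80 without library 2 of day 31 and 2.51 without library 1 of day 23, and rested on keratins of few counts, such as KRT4 and KRT23, with 0 counts in both day 23 libraries. The call of CLDN4 did not hold with any of the 4 libraries left out, nor that of ELF3 without library 1 of day 23, nor that of CLDN6 without library 2 of day 23 or library 1 or 2 of day 31.

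Of 23 laminins, basement membrane genes and integrins, 4 were called higher and 1 lower (median -0.05, or -0.02 without library 1 of day 23, 0.00 without library 2 of day 23 and 0.03 without library 1 of day 31). ITGB6, an epithelial integrin that releases TGF-beta, was at 4.77 and 4.46 CPM at day 23 and 12.4 and 14.8 CPM at day 31. ITGB8, another, rose from 38.7 ± 4.48 to 73.7 ± 2.49 CPM. Both integrins rose. LAMA1, a laminin of the embryonic basement membrane, rose from 49.3 ± 7.61 to 83.4 ± 5.25 CPM. LAMB3, of hemidesmosomes, rose from 20.9 ± 2.13 to 54.1 ± 3.28 CPM. COL4A2, type IV collagen, fell, at 79.4 and 71.7 CPM at day 23 and 37.7 and 50.3 CPM at day 31 (log2 fold change -0.78 ± 0.15, edgeR adjusted p = 0.0021). The call of LAMB3 did not hold with any of the 4 libraries left out, nor that of COL4A2 without library 1 of day 23 or library 1 of day 31, nor that of LAMA1 without library 1 of day 23 or library 1 or 2 of day 31, nor that of ITGB8 without library 2 of day 23 or library 1 or 2 of day 31. Nor did that of ITGB6 hold without library 2 of day 23 or library 2 of day 31. LAMB3 was not called by DESeq2 or with the filterByExpr filter.

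Of 23 cholesterol synthesis genes, 5 were called higher and none lower (median 0.23, or 0.36 without library 2 of day 23 and 0.39 without library 1 of day 31), with a summed level of 956 and 987 CPM at day 23 and 1322 and 1305 CPM at day 31. INSIG1, which holds the sterol sensor in the endoplasmic reticulum, rose from 28.9 ± 1.83 to 53.9 ± 5.36 CPM. INSIG1 is a target of the sterol-regulated factor SREBP2. HMGCS1, an early enzyme of the pathway, rose from 80.9 ± 6.63 to 127 ± 16.6 CPM. MSMO1, a late enzyme, rose from 41.2 ± 2.44 to 67.1 ± 5.17 CPM. SCD, the desaturase of stearate, was the single gene called of 10 in fatty acid synthesis, at 73.5 and 99.5 CPM at day 23 and 190.0 and 174 CPM at day 31 (log2 fold change 1.07 ± 0.16, edgeR adjusted p = 5.44e-05). Of the cholesterol genes, 1 and 2 without library 1 and 2 of day 23, and 1 and 3 without library 1 and 2 of day 31 were called. SCD kept its call in every alternative fit. The calls of INSIG1 and MSMO1 did not hold with any of the 4 libraries left out, nor that of HMGCS1 without library 1 of day 23 or library 1 of day 31. MSMO1 was not called with the filterByExpr filter.

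Of 19 ATF4 stress response genes, ATF3, a stress-induced factor, was called higher, at 71.2 and 66.5 CPM at day 23 and 117 and 126 CPM at day 31. STC2, the glycoprotein stanniocalcin 2, rose from 4.45 ± 0.0179 to 13.2 ± 1.42 CPM, and both calls held in every alternative fit. No gene was called among 22 endoplasmic reticulum chaperones (median 0.05, from 0.00 to 0.12 with a library left out), 22 hydrogen peroxide and antioxidant genes (median 0.10, from -0.08 to 0.20 with a library left out), 23 respiratory chain genes (median -0.01, from -0.09 to 0.07 with a library left out) or 12 pluripotency and fetal genes (median -0.10, from -0.14 to -0.02 with a library left out). A fit of the 4 libraries alone did call some of these genes higher and none lower. They were 1 chaperone, 2 hydrogen peroxide and antioxidant genes, 1 pluripotency and fetal gene and no respiratory chain gene. In the IGF system 3 of 16 were called higher. IGF2, a fetal growth factor, rose from 6.06 ± 1.94 to 17.2 ± 3.98 CPM. H19, its imprinted neighbour, rose from 151 ± 11.99 to 259.8 ± 82.3 CPM. IGFBP4, a binding protein, rose from 16.8 ± 0.368 to 28.7 ± 4.45 CPM. The call of IGFBP4 did not hold with any of the 4 libraries left out, nor that of H19 without library 1 or 2 of day 23 or library 2 of day 31, nor that of IGF2 without library 2 of day 23 or library 1 of day 31. H19 was not called by DESeq2, nor IGFBP4 in a fit of these 4 libraries alone.

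Of 18 retinoic acid genes, DHRS3, an enzyme that lowers retinaldehyde, was called higher, at 15.96 and 17.03 CPM at day 23 and 48.3 and 65.4 CPM at day 31 (log2 fold change 1.78 ± 0.28, edgeR adjusted p = 8.25e-05). CRABP1, a retinoic acid carrier, was called lower, with 13 and 23 counts on day 23 against 3 and 0 on day 31 (ratio 0.0806, counting interval 0.0159 to 0.255). The DHRS3 call held in every alternative fit. CRABP1 stood at 33.8 ± 8.98 CPM at day 38. The call of CRABP1 did not hold without library 2 of day 23 or library 2 of day 31. CRABP1 was not called in a fit of these 4 libraries alone.

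Markers of non-epithelial cells inside the gate were called in a few cases. Of 11 fibroblast markers (median 0.15, or 0.37 without library 2 of day 23 and -0.22 without library 2 of day 31), POSTN, the matrix protein periostin, was called higher, at 159 and 159.8 CPM at day 23 and 405 and 472 CPM at day 31 (log2 fold change 1.46 ± 0.14, edgeR adjusted p = 1.24e-08). LUM, the proteoglycan lumican, fell from 168 ± 15.2 to 98.7 ± 3.47 CPM. The fibroblast list, led by COL3A1, summed to 1902 and 1913 CPM at day 23 and 1981 and 2318 CPM at day 31, with DPT at 0 in all 4. Of 14 muscle markers (median 0.24, or 0.51 without library 1 of day 23 and 0.14 without library 1 of day 31), TTN, the sarcomere protein titin, was called higher, at 1282 and 1221 CPM at day 23 and 1709 and 1656 CPM at day 31, and the list, of which TTN is the largest part, summed to 1369 and 1295 CPM and then 1801 and 1758 CPM. Of 9 endothelial markers, EMCN, an endothelial sialoglycoprotein, was called lower, at 51.3 and 46.4 CPM at day 23 and 18.6 and 24.6 CPM at day 31, in a list that summed to 103 and 109 CPM and then 93.3 and 111 CPM, led by KDR, with PECAM1 at 0. Of those 9, 6 had a change above 0 and 2 below, with a median of 0.29, or 0.16 without library 1 of day 23, 0.49 without library 2 of day 23, 0.80 without library 1 of day 31 and 0.00 without library 2 of day 31. The call of EMCN did not hold without library 1 of day 23 or library 1 of day 31, nor that of LUM without library 1 of day 23 or library 1 or 2 of day 31.

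Of 14 neural markers, MAP2, a microtubule protein, was called higher, at 78.2 and 83.3 CPM at day 23 and 132 and 133 CPM at day 31, and that list, led by MAP2, summed to 170.1 and 182 CPM and then 203 and 225 CPM. Of the 14, 8 had a change below 0 and 6 above, with a median of -0.34, or 0.28 without library 2 of day 23, 0.39 without library 1 of day 31 and -0.72 without library 2 of day 31, and of 0.19 with the filterByExpr filter. The rise of MAP2 was larger than that of the sum. Of 12 calcitonin and neuroendocrine markers (median 0.45, or 0.26 without library 1 of day 23 and 0.01 without library 2 of day 31), PCSK2, a prohormone convertase, was called higher, at 11.3 and 13.4 CPM at day 23 and 51.3 and 37.4 CPM at day 31, in a list that is mostly SST and summed to 1079 and 967 CPM and then 1082 and 1216 CPM, with SCG5 and INSM1 at 0. Of 12 immune and blood markers, 6 had enough counts to be tested and none was called, with sums of 4.54 and 8.12 CPM and then 11.7 and 15.01 CPM, led by CD68, and CD3E, HBB, HBG1, HBG2 and PPBP at 0. The part of these cell types in the changes above was not tested. The call of MAP2 did not hold with any of the 4 libraries left out, nor that of PCSK2 without library 1 of day 23 or library 1 of day 31.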

How the data were processed

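RNA-seq counts of the 10 libraries were used as deposited by the authors, as whole-number read counts per gene symbol, with blank lines between genes that hold no counts. Per the submitters' notes and the study's methods, reads were trimmed with Trimmomatic, aligned to GRCh38 with HISAT2 and counted with HTSeq on GRCh38.p13 annotation. Their versions and the strand setting are not given in the sources used here, so overlapping and antisense genes are uncertain. Groups followed the labels.

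A gene entered the fit if 2 or more of the 10 libraries held 5 or more of its counts. It was fitted with edgeR 4.0.16 (R 4.3.3) on all 10 libraries, with TMM factors, 1 mean per day and the quasi-likelihood test of day 31 against day 23, two-sided, with Benjamini-Hochberg adjustment over all genes tested and a threshold of 0.05. The script was tested on simulated data. Total counts per library ranged from 8065086 to 9122044 in the 4 libraries, and counting intervals of ratios (exact, 95%) and the floor of 3 counts per library cover counting error only. The study calls the replicates biological and says in general that its data come from at least 3 independent experiments. It does not say whether the RNA-seq replicates came from separate differentiations. The p-values therefore measure the spread between these samples, which may be technical. Alternative fits were DESeq2 1.42.0, no TMM factors, upper-quartile factors, no filter on low counts, edgeR's filterByExpr, the 4 libraries alone, a replicate block, and each library left out in turn. A threshold of 1 on the absolute log2 fold change was tried apart from these.

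Libraries were taken by their labels. The pair of days, the 38 gene lists and their members were chosen with earlier results of these data known. Named genes are list members that were called with a few examples of the rest, the 12 largest rises and 12 largest falls among called genes with a mean of at least 5 CPM and days that do not overlap, the 5 most abundant called in each direction, and genes said in the text to have been chosen after their values were seen. Promoters and their motifs were read from RefSeq sequences (GRCh38.p14), and gene positions and exon overlaps from GENCODE 44. Some genes are not reported here.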

Additional observations from a re-analysis of the deposited data

How the results depend on the processing

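The number of genes called changed little with the scaling. It fell when a library was left out, which leaves 1 library on that day. That fall does not show dependence on particular libraries. With a library left out, 214 to 324 genes were called (162 to 210 higher, 52 to 115 lower), against 473 (333 and 140) with all. A fit of the 4 libraries alone called 743 genes (285 lower, 399 shared with the 473). With an absolute log2 fold change of at least 1, 282 genes remained (56 lower). DESeq2 called 585, upper-quartile factors 484, no TMM factors 487 (a shift of the median of all genes to 0.03), no filter 667 of 24177 tested, and filterByExpr 423. Labels share replicate numbers, and same-numbered libraries did not deviate together across these days (correlation -0.021). With a single difference between libraries on each day, this cannot decide whether the numbers pair the samples. The fit with a replicate block called 678 genes (211 lower), with no named call lost.

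Of 151 named genes that were called, none changed sign in any alternative fit and 60 kept the call in every alternative fit, 45 of them with an absolute log2 fold change of at least 1. Medians moved by more than the spread between replicates in at least 1 alternative for 33 of the 38 lists. Changes of sign were found in genes that were not called, among the thyroid genes PAX8 at 0.0064 without TMM factors and, with a library left out, PAX8 (-0.10 to 0.045), HHEX (-0.13 to 0.050), TG (-0.0062 to 0.21), TSHR (-0.015 to 0.25), SLC5A5 (-2.30 to 5.68), DUOX1 (-0.082 to 0.67), DUOX2 (-0.16 to 0.67), DIO2 (-0.13 to 0.050), SLC26A4 (-2.10 to 4.80), SLC26A7 (-0.57 to 0.14), DIO1 (-0.078 to 0.89), ANO1 (-0.22 to 0.41) and KCNE2 (-5.20 to 3.13), and among other named genes ATF4 (-0.062 to 0.17), COL3A1 (-0.22 to 0.10), CREM (-0.025 to 0.075), CXCL12 (-0.0052 to 0.15), KDR (-0.069 to 0.55), NFKB1 (-0.048 to 0.28) and TPPP3 (-0.30 to 0.17), all log2 fold changes. The cause was not tested. SLC5A5 and KCNE2 had few counts, so their counting error is wide.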
